A study of Zea mays with 7 samples.

Results

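*REL2* (*GRMZM2G042992*) and its 3 paralogs *RELK1* (*GRMZM2G316967*), *RELK2* (*GRMZM2G030422*) and *RELK3* (*GRMZM2G550865*) encode the TOPLESS-type corepressors described here. They were taken by gene identifier from the deposited count table, so the 4 genes stand among 110451 in the table and among 45361 with at least 1 read in some pool. All 4 were counted in every pool. Reads came from mRNA of 3–4 mm ear primordia, the young inflorescences that become the ears, from field-grown maize of the B73 background. The mutants were homozygous *Bif3* plants, with 4 pools, and the controls were their wild-type (WT) siblings, with 3 pools. Each pool held 3 ear primordia and is 1 biological replicate. The sample labels give the mutants as chosen by their appearance and state no zygosity, so the homozygous genotype is that of the study's methods. *Bif3* is a dominant allele with a tandem-duplicated copy of *ZmWUS1*, introgressed into B73 from another background, and it is known from a single source allele.

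TOPLESS proteins do not bind DNA themselves. Their N-terminal part binds short EAR-type motifs of transcription factors and adaptors, and the complex, together with histone deacetylases, keeps the target genes off. In Arabidopsis, TOPLESS proteins serve Aux/IAA proteins in auxin signaling, JAZ proteins and their adaptor in jasmonate signaling, and WUS itself in the shoot meristem. In maize, *REL2* was found as an enhancer of *ramosa1*, and the REL2 protein interacts with RA1, a zinc finger protein that limits branching of the ear and tassel.

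Each pool had between 41720131 and 56057512 reads counted to genes. Levels are given as CPM, counts per 1000000 reads of the library size after TMM scaling, which corrects for differences in composition between libraries. The scaling factors were between 0.9697 and 1.0377. A level of 3 reads, the detection limit used here, was between 0.0540 and 0.0719 CPM and covers counting error only. *ZmWUS1*, the duplicated gene, differed between the genotypes as the labels have it, with 4.31, 5.13, 3.82 and 12.8 CPM in the *Bif3* pools and 0.551, 0.324 and 0.320 CPM in the WT pools. *KN1*, which marks meristem tissue, had 486 to 617 CPM in *Bif3* and 418 to 498 CPM in WT. The summed level of the 9 listed genes for photosynthetic light-harvesting proteins and the Rubisco small subunit, which would mark green leaf or husk, was 0.759 to 2.79 CPM in *Bif3* and 0.621 to 2.84 CPM in WT, and 2 of the 9 had no read in any pool.

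Of the 4 corepressor genes, *RELK1* alone was past the threshold for differential expression, and it fell. It had 30.6, 32.7, 32.7 and 28.3 CPM in the *Bif3* pools and 60.9, 53.2 and 49.1 CPM in the WT pools. These levels rested on 1351, 1539, 1463 and 1408 reads in *Bif3* and 2543, 2955 and 2451 reads in WT. Every *Bif3* pool was below every WT pool, and the mutant pools lay close together. The means were 31.1 ± 2.05 CPM (SD, n = 4) in *Bif3* and 54.4 ± 6.02 CPM (SD, n = 3) in WT. The log2 fold change (log2FC) of *RELK1* was -0.81 (standard error 0.0931, 95% interval -1.0 to -0.61, adjusted p = 9.98e-05 from edgeR's QL F-test, Benjamini-Hochberg over all genes tested), a level 0.571 times that of WT. An exact permutation test of the mean log2 CPM over the 35 splits of the pools, two-sided, returned p = 0.0286, the smallest that 4 pools against 3 allow. In bulk tissue, fewer cells that express a gene and less transcript per cell cannot be told apart.

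A gene was called when its p-value was under 0.05, its adjusted p-value under 0.1 and its change over 1.5-fold, and such a gene is said to be past the threshold. Over all genes tested, 325 genes (0.716%) were past it and lower and 1625 genes (3.58%) past it and higher, 4.30% in either direction, against 1 of the 4 corepressor genes. Without WT replicate 2 the number of lower genes was 512. Among the 14132 genes with a mean of at least 10 CPM, 0.517% were past it and lower and 3.07% past it and higher. *RELK1* ranked 4 by p-value and 245 by the size of its fall among the 325 lower genes. Of the 7380 genes with a mean CPM within 2-fold of that of *RELK1*, 11 genes (0.149%) had a more negative log2FC. A fall of this size was uncommon among genes read at a similar depth, while most of the 325 lower genes fell by more.

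**Figure D1:**
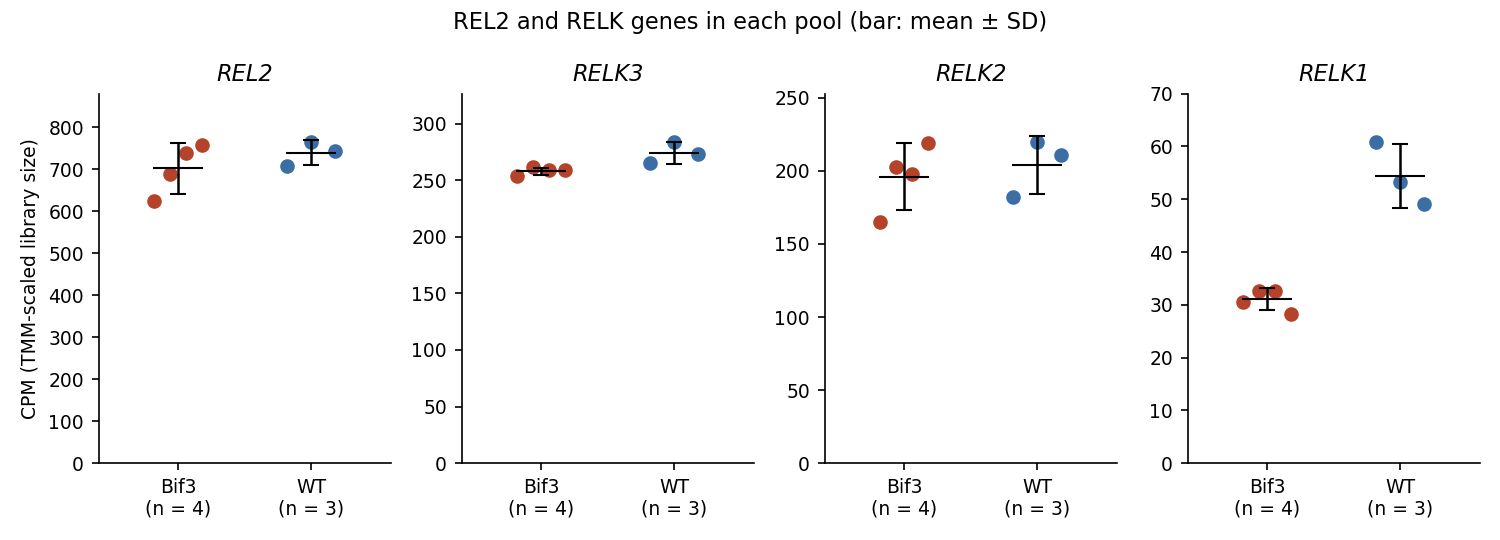
CPM of *REL2*, *RELK3*, *RELK2* and *RELK1* in each pool, *Bif3* (4 points) beside WT (3 points), with the mean and SD as bars; each panel has its own axis from 0. The *Bif3* pools of *RELK1* sit between 28.3 and 32.7 CPM, below the WT pools at 49.1 to 60.9 CPM, while the pools of *REL2* and *RELK2* overlap.

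*REL2*, the gene that gives the family its name, had 623, 688, 739 and 758 CPM in the *Bif3* pools and 708, 765 and 742 CPM in the WT pools. The genotypes overlapped. The means were 702 ± 60.4 CPM (SD, n = 4) in *Bif3* and 739 ± 28.9 CPM (SD, n = 3) in WT. The log2FC of *REL2* was -0.07 (standard error 0.095, adjusted p = 0.695, edgeR QL F-test), with a 95% interval of -0.27 to 0.13, so that a decrease of more than 17.3% or an increase of more than 9.20% lay outside it.

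*RELK2* had 165, 203, 198 and 219 CPM in *Bif3* and 182, 220 and 211 CPM in WT, again with overlap. Its log2FC was -0.06 (95% interval -0.28 to 0.16, adjusted p = 0.771, edgeR QL F-test). Without *Bif3* replicate 1, the lowest pool, the value was 0.015, so that no direction can be given for *RELK2*.

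*RELK3* had 254, 262, 259 and 259 CPM in *Bif3* and 265, 284 and 273 CPM in WT. All 4 mutant pools were below all 3 WT pools, although by little. The same was seen with the size factors of DESeq2, another scaling for composition, but the pools overlapped when library sizes were left unscaled. The log2FC of *RELK3* was -0.08 (95% interval -0.25 to 0.09, adjusted p = 0.613, edgeR QL F-test), with p = 0.0286 in the two-sided exact permutation test. Pools without overlap were common among genes with a mean of at least 10 CPM, of which 15.7% had all *Bif3* pools below all WT pools and 7.83% had them above, 23.5% in all, against 2 of the 4 corepressor genes, *RELK1* and *RELK3*. The median log2FC of these well-expressed genes was -0.06, close to the values of *REL2*, *RELK2* and *RELK3*, and that of all genes tested was -0.004.

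**Figure D2:**
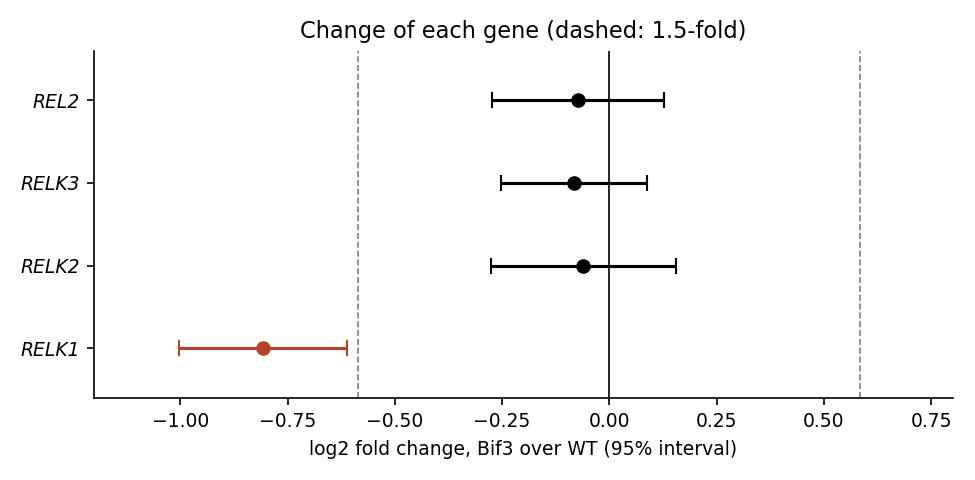
Log2FC of each gene, *Bif3* over WT, with its 95% interval from the edgeR fit; the dashed lines stand at a fold change of 1.5 in either direction. The interval of *RELK1*, -1.0 to -0.61, lies beyond the lower line, and those of the other 3 genes lie between the lines and include 0.

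The spread between pools is given for each paralog as a description only. With so few pools it is imprecise, and no difference in spread was tested. *RELK3* was the steadiest, with a coefficient of variation of 1.23% in *Bif3* and 3.47% in WT, where the genes within 2-fold of its mean CPM had medians of 7.57% in *Bif3* and 7.46% in WT. For *RELK2* it was 11.7% in *Bif3* and 9.64% in WT, above the medians of 7.21% in *Bif3* and 7.27% in WT of the genes read at its depth. For *REL2* it was 8.60% in *Bif3* and 3.91% in WT, both below the medians of 9.62% in *Bif3* and 8.58% in WT at its depth. For *RELK1* it was 6.60% in *Bif3*, below the median of 7.08%, and 11.1% in WT, above the median of 7.33%. Replicate 1 was the lowest pool of its genotype for *REL2*, *RELK2* and *RELK3* in both *Bif3* and WT. For *RELK1*, replicate 1 was instead the highest of the WT pools. The replicate 1 pools also had the fewest reads of their genotype, 42481699 in *Bif3* and 41720131 in WT, and the part of depth in these values was not tested. Without WT replicate 1 the log2FC of *RELK1* was -0.72, the smallest fall among the 7 fits with 1 pool less, and *RELK1* was past the threshold in all 7.

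The order of the 4 genes by reads was the same in all 7 pools. *REL2* had the most reads, followed by *RELK3*, *RELK2* and *RELK1*, and the CPM values of neighbours in this order did not overlap over the pools. *REL2* was the 54th most read of the 45361 genes, *RELK3* stood at rank 472, *RELK2* at 798 and *RELK1* at 6749. Transcript lengths were not at hand, so this is an order of reads and not of transcripts per length. Together the 4 genes took 0.111% to 0.124% of all counted reads in the *Bif3* pools and 0.122% to 0.131% in the WT pools.

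*REL2* held 58.1%, 58.1%, 60.2% and 60.0% of the family's reads in the *Bif3* pools and 58.2%, 57.9% and 58.2% in the WT pools. *RELK3* held 20.5% to 23.7% in *Bif3* and 21.4% to 21.8% in WT, and *RELK2* 15.3% to 17.3% in *Bif3* and 15.0% to 16.6% in WT, so that both overlapped between the genotypes. *RELK1* held 2.86%, 2.75%, 2.66% and 2.24% in the *Bif3* pools and 5.01%, 4.02% and 3.85% in the WT pools. For *RELK1* the 95% Wilson intervals, which cover counting error only, reached at most 3.01% in a *Bif3* pool and went down to at least 3.70% in a WT pool. The mean share of *RELK1* was 2.63 ± 0.27% (SD, n = 4) in *Bif3* and 4.29 ± 0.627% (SD, n = 3) in WT.

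**Figure D3:**
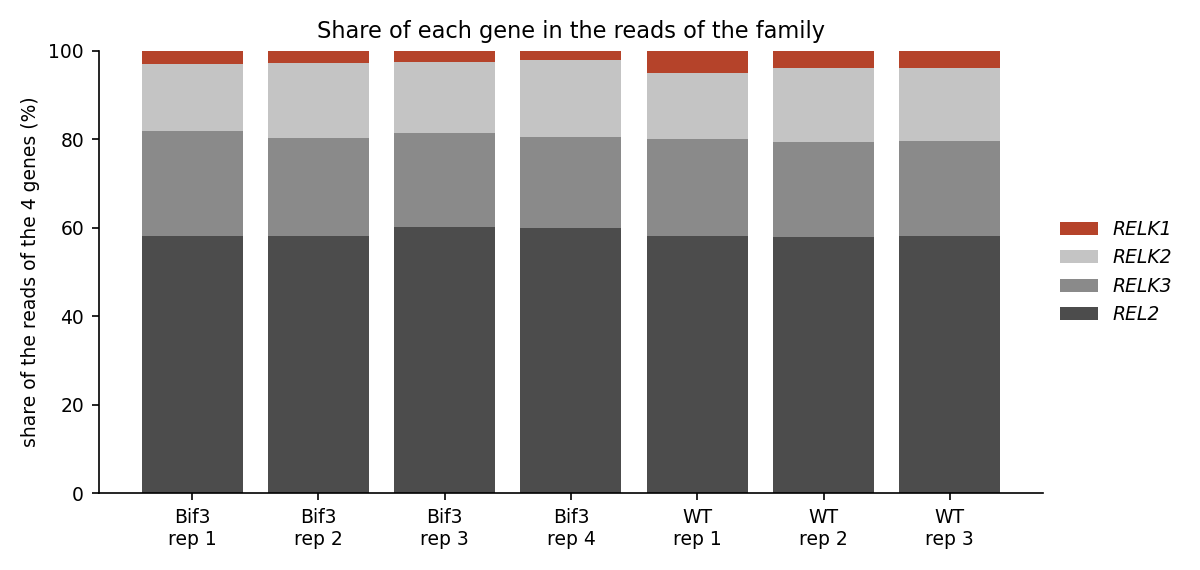
Share of *REL2*, *RELK3*, *RELK2* and *RELK1* in the reads of the 4 genes in each pool, in percent and not corrected for transcript length, with the 4 *Bif3* pools left of the 3 WT pools. *REL2* takes between 57.9% and 60.2% in every pool, and the *RELK1* segment at the top takes 2.24% to 2.86% in *Bif3* and 3.85% to 5.01% in WT.

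In absolute terms, the mean of *RELK1* differed by -23.3 CPM between *Bif3* and WT, and those of *REL2*, *RELK3* and *RELK2* by -36.5, -15.4 and -8.40 CPM. The summed level of the 4 genes was 1072, 1185, 1228 and 1265 CPM in the *Bif3* pools and 1216, 1322 and 1276 CPM in the WT pools. The sums overlapped between the genotypes, and averaged 1188 ± 83.4 CPM in *Bif3* (SD, n = 4) against 1271 ± 53.2 CPM in WT (SD, n = 3). None of the other 3 genes was higher in *Bif3* on average.

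Whether *RELK1* changed by a different amount than its paralogs was tested on the log2 ratios between genes within a pool, which do not depend on the scaling of the libraries. All 6 pairs were compared with exact permutation tests over the 35 splits, two-sided, adjusted over the 6 pairs. *REL2* had 22.6 times the reads of *RELK1* in *Bif3* and 13.6 times in WT, as geometric means. The log2 ratio of *RELK1* to *REL2* was -4.35, -4.40, -4.5 and -4.74 in the *Bif3* pools and -3.54, -3.85 and -3.92 in the WT pools, a difference of -0.73 (exact p = 0.0286, adjusted p = 0.0571). *RELK2* and *RELK3* had 6.28 and 8.33 times the reads of *RELK1* in *Bif3* and 3.76 and 5.05 times in WT. The differences of the ratios of *RELK1* to *RELK2* and to *RELK3* were -0.74 and -0.72, with the same exact p and adjusted p. In all 3 pairs the *Bif3* pools were below every WT pool, but the adjusted p-value, which is the smallest that 3 such pairs out of 6 can reach, did not pass 0.05. All 3 pairs hold *RELK1*, so they are not independent and do not count as 3 separate results.

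The 3 pairs without *RELK1* had differences close to 0. The log2 ratio of *REL2* to *RELK2* was 1.84 ± 0.078 (SD, n = 4) in *Bif3* and 1.86 ± 0.088 (SD, n = 3) in WT, a difference of -0.01. That of *REL2* to *RELK3* was 1.44 ± 0.117 (SD, n = 4) in *Bif3* and 1.43 ± 0.012 (SD, n = 3) in WT, a difference of 0.01. The difference for *RELK2* to *RELK3* was 0.02. For *RELK2* to *RELK3* the SD between pools was 0.161 in *Bif3* and 0.099 in WT. Each of these differences was smaller than the SD of its ratio in either genotype. The exact permutation test found no difference in the 3 pairs (adjusted p = 1), which sets no bound on a difference.

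**Figure D4:**
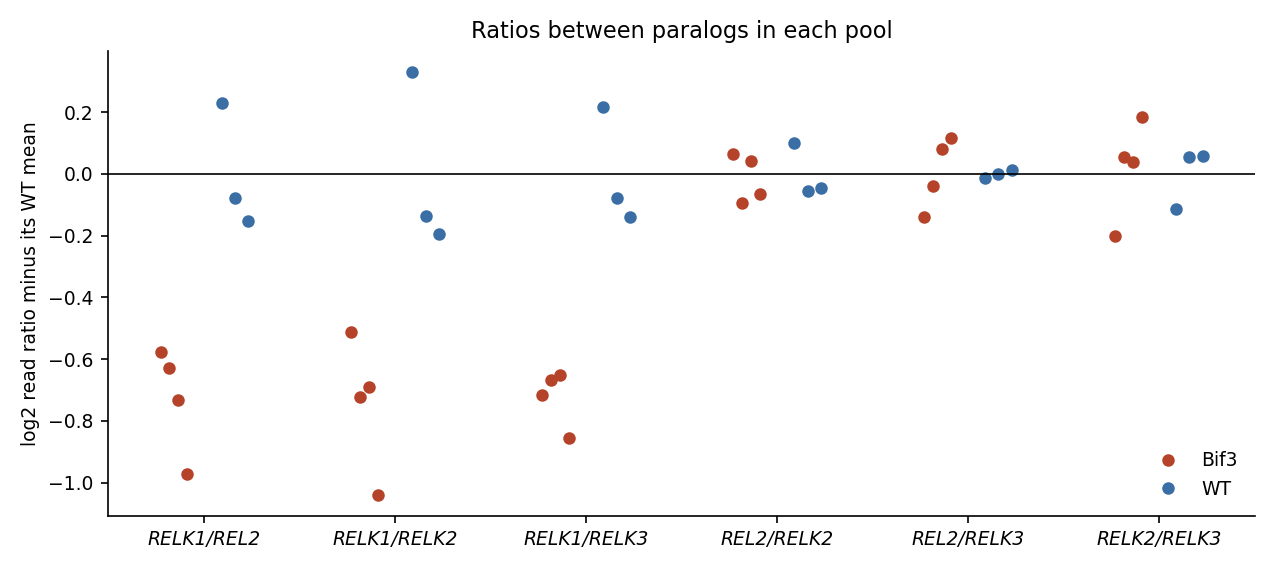
Log2 ratio of the reads of each pair of paralogs in each pool, minus the mean of the pair in WT, with the *Bif3* pools left of the WT pools for each pair. The *Bif3* points of the 3 pairs with *RELK1* lie below all WT points, with mean differences between -0.74 and -0.72, and the points of the other 3 pairs overlap around 0.

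Over the pools, the lowest level of *RELK1*, 28.3 CPM, was in *Bif3* replicate 4, which had the highest level of *ZmWUS1*, 12.8 CPM. The other 3 *Bif3* pools had 4.31, 5.13 and 3.82 CPM of *ZmWUS1* and, in the same order, 30.6, 32.7 and 32.7 CPM of *RELK1*. Among the WT pools, replicate 1 was the highest for both genes, with 0.551 CPM of *ZmWUS1* and 60.9 CPM of *RELK1*. With 4 mutant pools no relation between the genes was tested. Without *Bif3* replicate 4 the log2FC of *RELK1* was -0.78.

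Of 7 genes that mark parts of the ear primordium, 2 were past the threshold and higher, where 3.58% of all genes were, and 5 did not pass. The study had already reported those 2, *ZmCLE7* and *ZAG1*, as up-regulated from the same RNA-seq data. Their count beside the share of all genes is therefore no new result about the markers. *ZmCLE7*, a signaling peptide gene of the meristem, had 2.38, 5.03, 2.86 and 17.6 CPM in *Bif3* and 1.08, 0.630 and 0.841 CPM in WT. *ZAG1*, a floral organ identity gene, had 0.179 to 2.19 CPM in *Bif3* and at most 0.04 CPM in WT. *FEA2* and *FEA3*, receptor genes that limit meristem size, were not past the threshold, with log2FC values of -0.02 and 0.48, and neither was *ZYB15*, a marker of lateral organ primordia, with 26.4 to 54.6 CPM in *Bif3* and 20.9 to 58.9 CPM in WT. The part of the tissue makeup in the fall of *RELK1* was not tested.

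Transcription factors known or expected to work with TOPLESS proteins were measured in the same pools. *RA1* (*GRMZM2G003927*), the partner through which *REL2* was found, had 6.85, 6.32, 10.2 and 7.55 CPM in *Bif3* and 9.63, 8.16 and 15.0 CPM in WT. The genotypes overlapped, and the log2FC of -0.50 was not past the threshold (adjusted p = 0.189, edgeR QL F-test). *RA1* was past it without *Bif3* replicate 3, with a log2FC of -0.67, and without WT replicate 2, with one of -0.68, in a range of adjusted p from 0.0186 to 0.690 over the alternatives. *IDS1* and *SID1*, AP2-type genes that control spikelet meristem fate, had log2FCs of -0.04 and 0.09 and overlapped between the genotypes.

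*BD1*, an ERF-type gene expressed at the base of spikelet meristems, had 2.88, 1.70, 0.112 and 0.0604 CPM in the *Bif3* pools and 0, 0.900 and 0.10 CPM in the WT pools. It was read mainly in replicates 1 and 2 of *Bif3* and replicate 2 of WT, a split between pools of the same genotype that *RELK1* did not show. *BD1* was not past the threshold (adjusted p = 0.416, edgeR QL F-test), but was past it and higher without WT replicate 2 (adjusted p = 0.00521 in that fit).

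The WUS genes were called in opposite directions in the reported fit, *ZmWUS2* on few reads. *ZmWUS1* was past the threshold with a log2FC of 4.05 (adjusted p = 5.07e-05, edgeR QL F-test). Its paralog *ZmWUS2* (*GRMZM2G028622*) had 0, 0, 3 and 0 reads in the *Bif3* pools and 18, 10 and 7 reads in the WT pools. *ZmWUS2* was past the threshold and lower (adjusted p = 0.0247, edgeR QL F-test), but not without WT replicate 1 (adjusted p = 0.111). DESeq2 gave *ZmWUS2* no adjusted p, and edgeR's filter on low counts left it out. Of the 6 transcription factors, 1 was thus higher and 1 lower past the threshold, where the shares over all genes were 3.58% and 0.716%. The higher one was *ZmWUS1*, the gene duplicated in the mutant. Its call came with the genotype and says nothing about the other transcription factors. The median log2FC of the 6 was 0.02, beside -0.004 over all genes tested.

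The histone deacetylases, the enzymes that act with the corepressors on chromatin, were not past the threshold in any of the 7 genes that the reference table names. Their log2FCs ran from -0.28 to 0.06, and the median was -0.105. DESeq2 and limma-voom, with the same threshold, likewise called 0 of the 7. At an unadjusted p-value under 0.05 in edgeR, 3 of the 7 were lower and 0 higher, where 6.85% of all genes were lower and 9.51% higher. These shares are over all 45361 genes, of which only 14132 had a mean of at least 10 CPM, as all 7 deacetylases did. The share among those 14132 genes was not computed, and their median log2FC was -0.06. At the same unadjusted p-value, 1 of the 6 transcription factors, the duplicated *ZmWUS1*, was higher and 2 were lower. Of the 3 Aux/IAA genes described next, 1 was higher and 0 lower. For the ARF genes, 5 were higher and 1 lower, and for the JAZ/ZIM genes 3 were higher and 2 lower. Of the 7 markers, 4 were higher and 0 lower, and the 4 included *ZmCLE7* and *ZAG1*, which the study had already reported as up-regulated. *hda102* had the lowest log2FC, at 77.1, 75.5, 83.9 and 87.0 CPM in *Bif3* and 92.2, 97.5 and 104 CPM in WT. Its pools did not overlap and its adjusted p was 0.0786 (edgeR QL F-test), but the change was under 1.5-fold. *hda101*, the most read of the 7, had 128 to 143 CPM in *Bif3* and 123 to 138 CPM in WT.

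Of the 3 Aux/IAA genes named in the reference table, 1 was past the threshold and higher, where 3.58% of all genes were. That table names 19075 of the 110451 genes, so the lists drawn from it may hold only part of a family. The higher gene, *BIF4*, had already been reported by the study as up-regulated in the mutant. *BIF4* (*GRMZM5G864847*), an auxin signaling repressor of inflorescence patterning, had 15.3, 14.5, 9.28 and 25.0 CPM in *Bif3* and 8.48, 4.37 and 7.85 CPM in WT, a log2FC of 1.22 (adjusted p = 0.0110, edgeR QL F-test). *BIF1*, which also acts in inflorescence patterning, had 12.2 to 15.0 CPM in *Bif3* and 11.2 to 18.4 CPM in WT. *IAA12* was past the threshold only without WT replicate 2, which brought the count to 2. The median log2FC of the 3 was 0.51.

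Of the 20 auxin response factor (ARF) genes listed, which encode the DNA-binding partners of the Aux/IAA proteins, 19 were read in some pool and 1 was past the threshold, *ARF5* (*GRMZM5G808366*), a share near the 4.30% of all genes past it in either direction. *ARF5* was lower, where 0.716% of all genes were, with 0.522, 0.446, 0.803 and 0.624 CPM in *Bif3* and 1.01, 1.08 and 1.62 CPM in WT, a log2FC of -1.04 (adjusted p = 0.0675, edgeR QL F-test). *ARF5* was not past the threshold without WT replicate 3 (adjusted p = 0.323) or without *Bif3* replicate 1 or 2 (adjusted p = 0.136 and 0.178). Without WT replicate 2, *ARF3* and *ARF9* were past it and higher, and without *Bif3* replicate 3 *ARF9* was. *ARF13*, the most read ARF gene, had 581 to 733 CPM in *Bif3* and 516 to 584 CPM in WT, with a log2FC of 0.23 that was not past the threshold. The median of the 19 was 0.03.

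Of the 21 genes with a ZIM, JAZ or TIFY name, the family that holds the jasmonate repressors, 16 were read in some pool and 1 was past the threshold, a share near the 3.58% of all genes past it and higher. *TIFY17* (*GRMZM2G151519*) was higher, with 4.26, 3.78, 3.26 and 3.38 CPM in *Bif3* and 2.40, 2.36 and 1.58 CPM in WT, a log2FC of 0.80 (adjusted p = 0.0399, edgeR QL F-test). It was not past the threshold without *Bif3* replicate 1 (adjusted p = 0.107) or without WT replicate 3 (adjusted p = 0.194). The median of the 16 was 0.065. *TIFY12*, the most read gene of the family, had 166 to 192 CPM in *Bif3* and 167 to 184 CPM in WT.

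**Figure D5:**
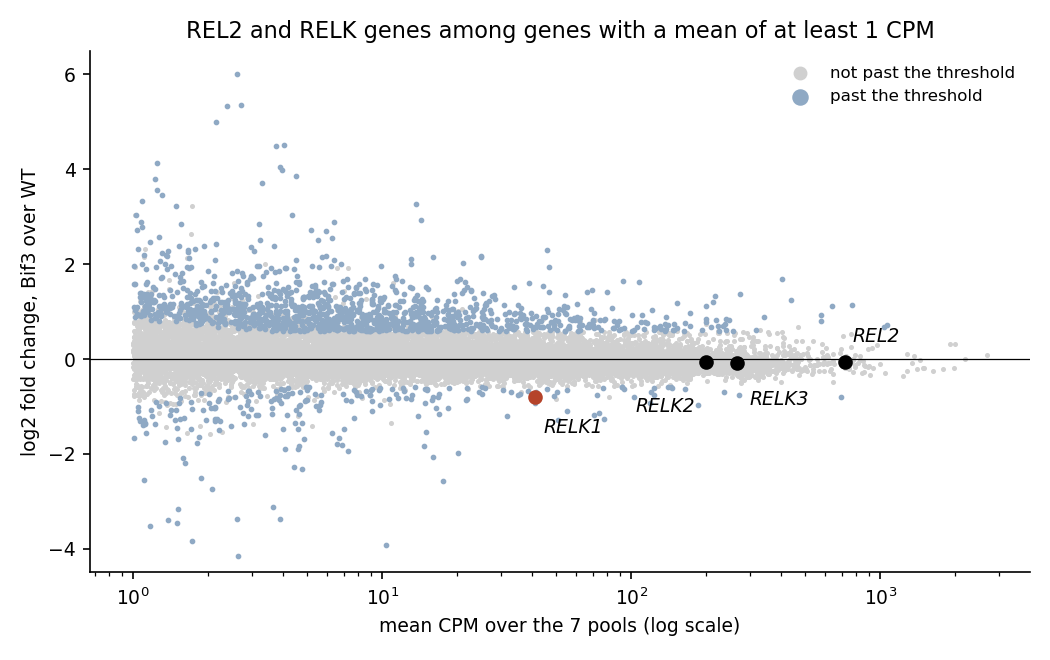
Log2FC, *Bif3* over WT, against the mean CPM over the 7 pools on a log axis, for 21634 genes with a mean of at least 1 CPM (2 genes lie outside the axis). Grey points are not past the threshold and blue points are; the larger points are *RELK1* (red, -0.81) and *REL2*, *RELK2* and *RELK3* (black, between -0.08 and -0.06).

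The genes whose pattern was most like that of each corepressor gene were taken by the correlation of log2(CPM + 0.5) over the 7 pools, among the 14132 genes with a mean of at least 10 CPM. With so many genes and few pools, a high value is a description and carries no test. The nearest to *RELK1* were *GRMZM2G030659* (r = 0.992), *GRMZM2G117633* (r = 0.991) and *GRMZM2G063942* (r = 0.987). All 3 had *Bif3* pools below every WT pool, which their choice by likeness to *RELK1* over the same pools makes likely. Among the 14132 genes, 15.7% had this. The log2FCs of the 3 genes, -0.20, -0.15 and -0.22, were nearer to 0 than that of *RELK1* and not past the threshold. The nearest to *REL2* were *GRMZM2G040743* (r = 0.992), *AC205730.3_FG002* (r = 0.992) and *GRMZM5G858282* (r = 0.987). Those nearest to *RELK2* were *GRMZM2G149751* (r = 0.995), *GRMZM2G443447* (r = 0.995) and *GRMZM2G398527* (r = 0.991), and those nearest to *RELK3* were *GRMZM2G016189*, named *ALDH10A9* (r = 0.992), *GRMZM2G150251* (r = 0.981) and *GRMZM2G026043* (r = 0.980). The lowest adjusted p among these 12 genes was 0.131 (edgeR QL F-test), so that 0 were past the threshold, and none was shared by a pair of the corepressor genes.

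When the genotype means were taken out, so that only the spread between pools of the same genotype was compared, *GRMZM2G040743* and *AC205730.3_FG002* were again the nearest to *REL2* (r = 0.991 and 0.990), and *GRMZM2G443447* and *GRMZM2G149751* were again among the 3 nearest to *RELK2* (r = 0.997 and 0.995). For *RELK1* the nearest were then *GRMZM2G158998* (r = 0.994), *GRMZM2G063151*, named *IBP1* (r = 0.993), and *GRMZM2G144890* (r = 0.988), none of them among the 3 above. For *RELK3* they were *GRMZM2G109383* (r = 0.997), *GRMZM2G385338* (r = 0.992) and *GRMZM2G059102* (r = 0.991).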

How the data were processed

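The study's methods name Trimmomatic for trimming, HISAT 2.1.0 for alignment against B73 v3, and HTSeq-count for read counting by the authors. The submitters' processing notes instead name TopHat2 2.1.1 and Cuffdiff, so the aligner behind the table is uncertain. The deposited values are whole-number read counts without normalization, and the libraries were stranded. Whether counting used strand, and how reads shared by paralogs were treated, is not given in the sources used here, so reads could have been dropped or split between these genes.

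Counts were fitted with edgeR 4.0.16 in R 4.3.3, with the quasi-likelihood fit in its earlier form, TMM scaling and no covariate, on the 45361 genes with at least 1 read; p-values were adjusted over all of them. Standard errors and intervals were derived from the log2 fold change and its F statistic. In log2 ratios 0.5 was added to each count, and for permutations 0.01 to each CPM. DESeq2 1.42.0 and limma 3.58.1 served as alternatives. The fit was tested on simulated data.

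The 4 genes and the lists were chosen with earlier results of these data known. Named are the 4 genes, the 6 transcription factors, the genes past the threshold and the most read gene of each list, and the 3 genes most like each corepressor gene. *BIF1*, *IAA12*, *ARF3*, *ARF9*, *hda102* and the markers not past the threshold were named after their values were seen. Names came from the study or from a RefSeq gene table (assembly NAM-5.0), which pairs 3 of the 4 genes with a name and in which no gene matched LEUNIG or SEUSS. Coordinates, protein and promoter sequences and lengths were not used here, so the planned levels per length and the comparisons of proteins and promoters were not made.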

Additional observations from a re-analysis of the deposited data

Results flagged for a closer look

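A gap test on groups of 4 pools was applied to the levels, read shares and ratios of the 4 corepressor genes and to the levels of the 6 transcription factors, 20 groups in all, of which chance flags about 1 in 20. No value of the corepressor genes stood apart. *ZmWUS1* in *Bif3* replicate 4, at 12.8 CPM, was far above the other 3 mutant pools at 4.31, 5.13 and 3.82 CPM. *ZmWUS2* had 0.067 CPM in *Bif3* replicate 3, from 3 reads, where the other 3 mutant pools had none. With the others at 0, any read in a single pool would have met the gap test, so this value carries no weight.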

How the results depend on the processing

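The fall of *RELK1* kept its direction and stayed past the threshold in all 17 alternatives. Its log2FC ranged from -0.88 without WT replicate 3 to -0.72 without WT replicate 1. Adjusted p-values were 1.74e-11 to 0.00643 over the edgeR, DESeq2 and limma-voom fits. The alternatives of an adjusted p under 0.05 and of no limit on fold change reused the reported fit, so no direction could change in them. In that edgeR fit the adjusted p was 9.98e-05 for *RELK1* and at least 0.613 for *REL2*, *RELK2* and *RELK3*. Their calls could therefore not change in these alternatives either. *REL2*, *RELK2* and *RELK3* were past the threshold in none of the 17, with ranges of -0.13 to -0.02, -0.14 to 0.015 and -0.11 to -0.05. The ratios of *RELK1* to *REL2*, *RELK2* and *RELK3* kept their direction in 9 alternatives each, with adjusted p-values of 0.0571 to 0.2 from the exact permutation test. With a pool left out there are fewer splits. The 0.133 without a WT pool and the 0.2 without a *Bif3* pool are then the smallest that 3 such pairs can reach. The number of lower genes was 189 with every gene of the table and 857 with no limit on fold change, and 238 to 512 when a pool was left out. Of the transcription factors, *ZmWUS2* was left out by edgeR's filter on low counts, also used with limma-voom, and had no adjusted p with DESeq2, so that 0 were lower there. When a pool was left out, 1 to 2 transcription factors were higher and 0 to 2 lower, 1 to 2 Aux/IAA genes were higher, 0 to 2 ARF genes were higher and 0 to 1 lower, and 0 to 1 JAZ/ZIM genes were higher. At an adjusted p under 0.05, and with every gene of the table, 0 ARF genes were lower, and with no limit on fold change 1 histone deacetylase, *hda102*, was lower.

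With the replicate number as a block, *RELK1* had a log2FC of -0.76 (adjusted p = 9.65e-05 from edgeR), 1902 genes were higher and 380 lower, and *BD1*, *ARF3* and *ARF9* were also past the threshold, for 2 transcription factors and 2 ARF genes higher. The deviations of same-numbered pools correlated at -0.018, 0.487 and 0.270 over genes. Pools of different number ranged from -0.378 (*Bif3* replicate 2 with WT replicate 3) to 0.301 (*Bif3* replicate 4 with WT replicate 3). The value of 0.487 was the highest of all. Pools of the same number were not always the most alike, so the numbers were not taken as pairs. Levels per length could not be computed. Depth was not a limit for the 4 corepressor genes, the least of which had 1351 reads in a pool, whereas *ZmWUS2* had at most 18.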
